A study of Lupinus albus with 12 samples.

Results

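Flavonoid and isoflavonoid synthesis was examined in roots and leaves of white lupin, Lupinus albus. This legume answers a lack of phosphorus (P) with proteoid or cluster roots, dense brushes of short side roots. The members are the assembled sequences whose deposited MapMan class, a plant ontology of metabolic functions, falls under flavonoids of secondary metabolism. There are 210 of them among 125535 sequences in the deposited matrix, and the 203 that reached 1 RPKM (reads normalised for sequence length and library size) in at least 3 of 12 libraries are described here, of 87081 sequences that did so. The filter kept 44 of 44 sequences in the chalcone subclass, 67 of 68 in dihydroflavonols, 38 of 40 in flavonols, 46 of 50 in anthocyanins and 10 of 10 in isoflavonols, with 2 terpene cyclase-related sequences counted in both dihydroflavonols and flavonols. The 7 members that did not pass are low in all libraries.

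The variety is Ultra, and all plants were raised in a growth chamber held at 20 °C by day and 15 °C by night with 16 h of light, and harvested 14 days after emergence. The 4 groups have 3 biological replicates each. They are proteoid roots of P-deficient plants (1 mM calcium sulfate), roots of P-sufficient plants (1 mM calcium phosphate), leaves of P-deficient plants and leaves of P-sufficient plants. Deficient roots are labelled proteoid roots and sufficient ones simply roots, so in roots supply and root type cannot be told apart. The labels do not say whether a library comes from 1 plant or a pool.

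Flavonoids are made from phenylalanine. Phenylalanine ammonia-lyase, cinnamate 4-hydroxylase and 4-coumarate:CoA ligase supply the activated phenolic acid that chalcone synthase joins to malonyl units, and chalcone isomerase closes the chalcone into a flavanone. From there flavanone 3-hydroxylase, flavonoid 3'-hydroxylase and flavonol synthase lead to flavonols, dihydroflavonol reductase and leucoanthocyanidin dioxygenase lead to anthocyanins and tannins, and legumes have a branch of their own to isoflavonoids. Legume roots release flavonoids and isoflavonoids as signals to rhizobia and as defence compounds, and white lupin cluster roots are known to exude isoflavonoids. In leaves, flavonols screen ultraviolet light.

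The identifiers name assembled sequences and not genes. Several sequences can be copies, alleles or fragments of 1 gene, and how reads that match more than 1 copy were divided is uncertain, so the level of a single sequence is less sure than the sum over an enzyme. Values of the light-harvesting proteins LHCB (9 sequences summed) were 34.5 to 59.0 RPKM in the 6 root libraries and 9015.7 to 39852.5 RPKM in the 6 leaf libraries, with 4 of the 9 at 0 throughout each root group. Replicate 3 of the deficient leaves was unlike the rest: 70.9% of all its RPKM came from 20 sequences, against 4.77% to 18.0% for the top 20 of other libraries, and its median tested sequence was at 0.9 RPKM against 2.1 to 2.7. Depth per library is unknown. The p-values below measure only the spread between these samples.

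The first question is where each step of the pathway is expressed. Most of the class was higher in roots than in leaves. The fit was limma on log2(RPKM + 0.5) over all 12 libraries with Benjamini-Hochberg adjustment across every tested sequence. Sequences with an adjusted p under 0.05 are referred to as called. Under deficient P, 117 of 203 members were called higher in proteoid roots than in leaves and 21 lower, where 42.2% of all tested sequences were called, 29% higher and 13.2% lower. Under sufficient P, 111 were higher in roots and 31 lower, where 42% of all tested sequences were called, 24.1% higher and 17.8% lower. The median root minus leaf difference of the members was 1.52 (log2) under deficient and 1.44 under sufficient P, against 0.42 and 0.19 over all sequences tested. With median-of-ratios scaling, which takes most of that overall shift out (0.07 and 0.04 over all tested sequences), 107 members were higher and 27 lower in proteoid roots under deficient P and 114 higher and 35 lower in roots under sufficient P, with medians of 1.16 and 1.28; all tested sequences then divided into 22493 higher and 19717 lower under deficient P. Under sufficient P that scaling gave 22198 higher and 21399 lower of 83696 tested sequences. Without replicate 3 of the deficient leaves, 107 members were higher and 24 lower in proteoid roots. Of all 87081 tested sequences, 20368 were then higher and 16260 lower. In whole tissue, fewer cells of a type and less RNA per cell cannot be told apart.

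Calls were shared between supplies. Higher in roots at both supplies were 103 members, where 20.6% of all tested sequences had that pattern, and 21 were lower in roots at both, where 12% did. No member was called in opposite directions at the 2 supplies, as was true of all but 0.0253% of tested sequences. Another 32 members were called at 1 supply and 47 at neither. By subclass, the members higher in roots at both supplies were 29 of 44 for chalcones, 24 of 67 for dihydroflavonols, 17 of 38 for flavonols, 30 of 46 for anthocyanins and 3 of 10 for isoflavonols. Those lower in roots at both supplies were 4, 11, 5, 0 and 1 in the same order of subclasses.

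**Figure D1:**
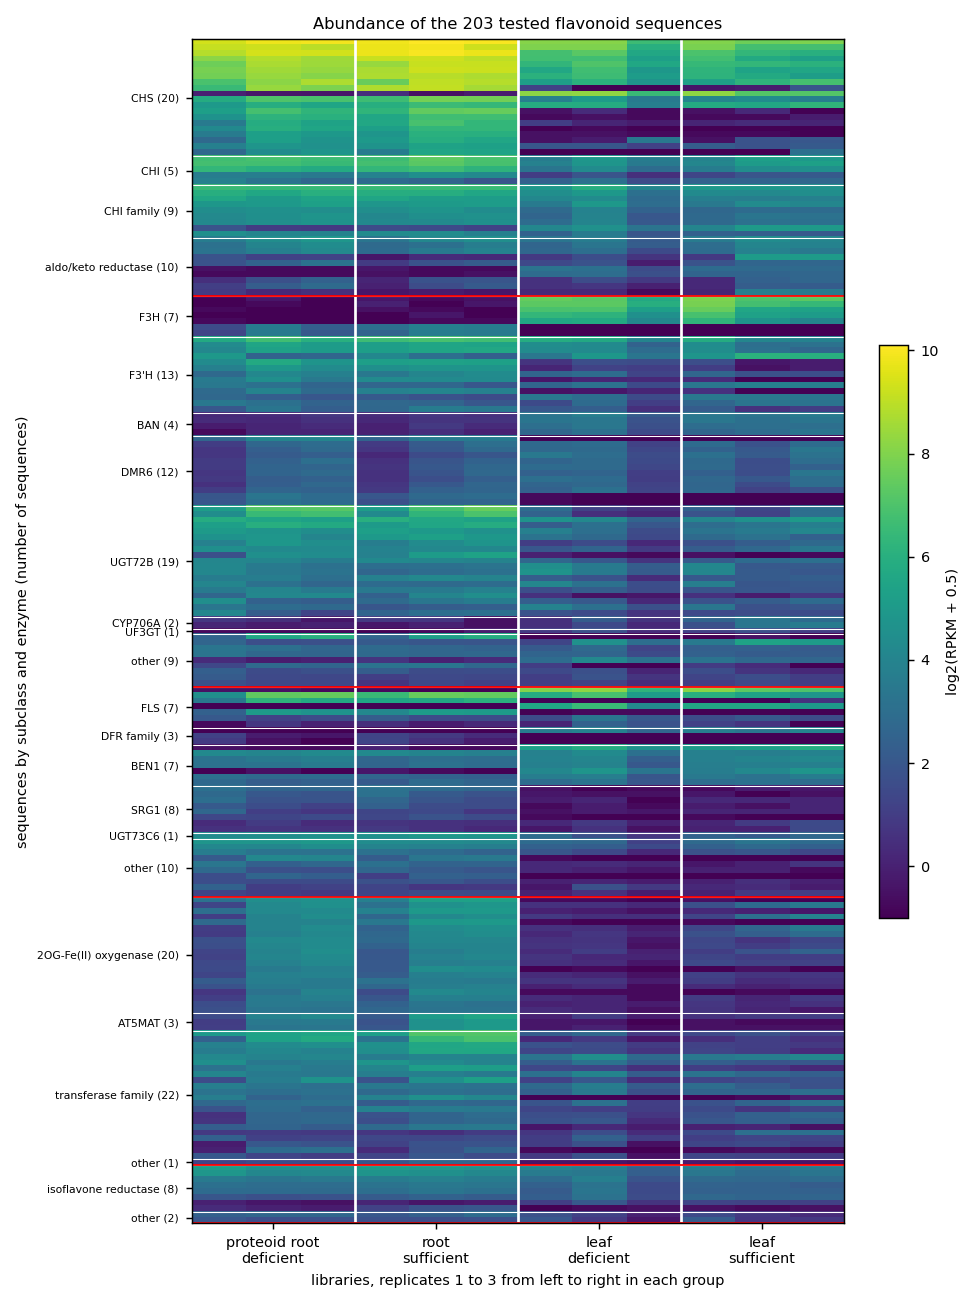
Abundance of the 203 tested members in each library, as log2(RPKM + 0.5); members run down the page by subclass (red lines) and enzyme (white lines), libraries run across in the 4 groups of 3. Chalcone synthase, chalcone isomerase and the anthocyanin-subclass oxygenases are brighter in the root columns, and flavanone 3-hydroxylase has 5 sequences that are bright in the leaf columns alone.

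The steps that feed the pathway were higher in roots too. These enzymes stand outside the flavonoid class and were found by symbol in the deposited annotation. Phenylalanine ammonia-lyase, which opens phenylpropanoid synthesis, had 29 tested sequences, 23 of them higher and 0 lower in proteoid roots than in leaves under deficient P, and 22 higher and 1 lower in roots under sufficient P. Cinnamate 4-hydroxylase had 18 and 19 of 20 higher in roots at deficient and sufficient P, and 4-coumarate:CoA ligase 18 of 18 at both. Summed over 30 sequences, tested or not, phenylalanine ammonia-lyase was 776.9, 1719.3 and 1804.6 RPKM in deficient proteoid roots and 1594.9, 2681.9 and 2489.6 in sufficient roots, against 394.7, 293.2 and 106.6 in deficient leaves and 353.1, 313.6 and 300.4 in sufficient leaves. Every root library was above every leaf library in this sum.

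Chalcone synthase, the committed step, carried most of the summed abundance of the class in roots. Its 20 sequences summed to 3031.0, 5005.2 and 4602.2 RPKM in deficient proteoid roots, to 5540.0, 7402.3 and 6395.8 in sufficient roots, to 1342.1, 1578.3 and 516.2 in deficient leaves and to 1367.3, 916.4 and 959.9 in sufficient leaves. The whole class of 203 members summed to 4990.4, 7884.4 and 7417.0 RPKM in deficient proteoid roots and 7733.8, 10766.9 and 9839.1 in sufficient roots, against 3219.7, 3861.7 and 1240.2 in deficient leaves and 3554.0, 2588.6 and 2680.2 in sufficient leaves. Root and leaf libraries did not overlap in either sum. As a share of all RPKM in a library, the class took 0.613% to 0.942% in deficient proteoid roots and 0.963% to 1.33% in sufficient roots, against 0.105% to 0.437% in deficient leaves and 0.281% to 0.404% in sufficient leaves. Of the 20 chalcone synthase sequences 18 were higher in roots at both supplies and 1 was lower at both.

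The most abundant chalcone synthase sequence in roots, LAGI01_69633, stood at 645.7, 913.5 and 968.7 RPKM in deficient proteoid roots and 922.0, 1100.5 and 1015.7 in sufficient roots, against 271.7, 270.3 and 97.4 in deficient leaves and 257.1, 200.7 and 237.1 in sufficient leaves. It was thus expressed in both tissues, higher in roots, and held 20% of the enzyme's summed mean in deficient and 15.7% in sufficient roots. Its root minus leaf difference was 2.1 ± 0.423 (log2, SE; limma adjusted p = 0.000744) under deficient and 2.13 under sufficient P (limma adjusted p = 0.000593).

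A pair of other copies had nearly all of their abundance in 1 tissue. LAGI01_76186 stood at 92.1, 334.4 and 243.8 RPKM in deficient proteoid roots and 435.6, 545.2 and 386.7 in sufficient roots, against 1.8, 0 and 0 in deficient leaves and 0.3, 0.4 and 3.3 in sufficient leaves. Its lowest root library was far above its highest leaf library, with log2 differences of 7.88 and 8.34 at deficient and sufficient P (limma adjusted p = 1.04e-07 and 4.53e-08). LAGI01_29302 was the reverse, at 0.5, 0.3 and 0.3 RPKM in deficient proteoid roots and 0.9, 0.2 and 0.4 in sufficient roots, against 288.9, 306.1 and 91.3 in deficient leaves and 296.4, 140.5 and 138.7 in sufficient leaves. Here no root library reached 1 RPKM, and the log2 differences were -7.87 and -7.55 at deficient and sufficient P (limma adjusted p = 3.78e-09 and 5e-09). LAGI01_29302 thus passed the filter through leaves alone, so its tissue tests are conditioned on the tissue where it is high.

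**Figure D2:**
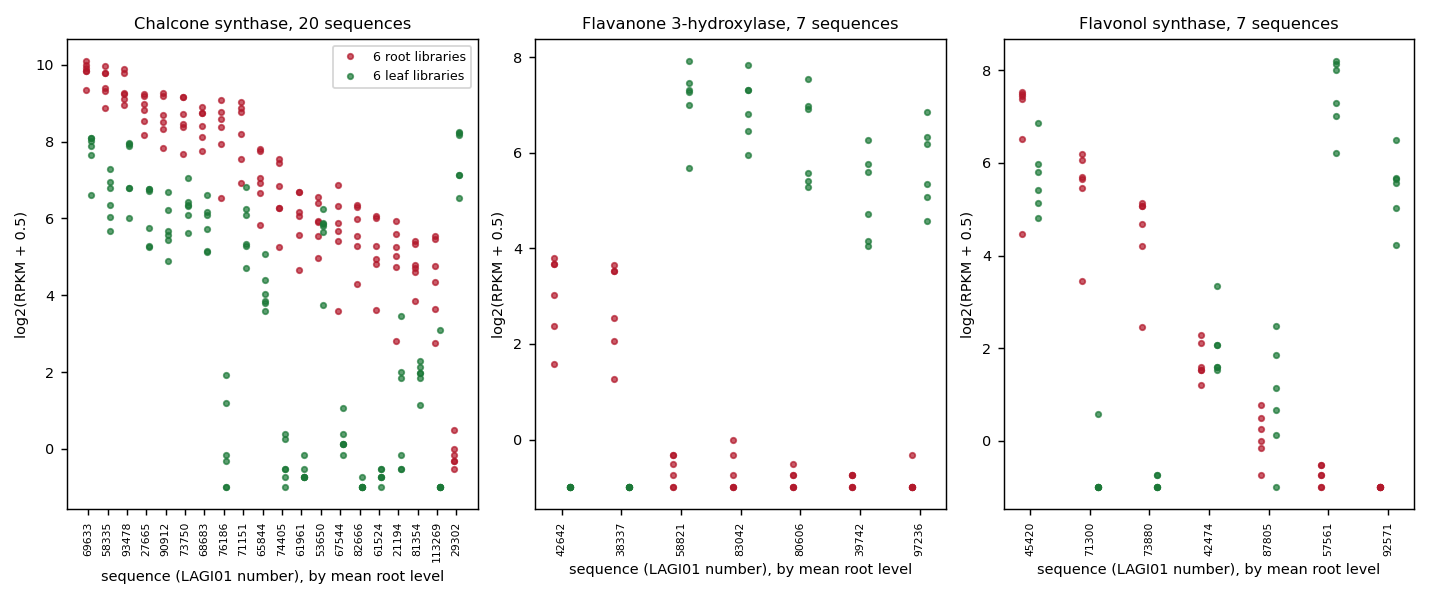
Each sequence of chalcone synthase, flavanone 3-hydroxylase and flavonol synthase on a log2(RPKM + 0.5) axis, with 6 root libraries (red) and 6 leaf libraries (green) per sequence, ordered by mean in roots; numbers on the horizontal axis are the ends of the LAGI01 identifiers. Of the 20 chalcone synthase sequences 18 lie higher in roots, whereas flavanone 3-hydroxylase and flavonol synthase split into root and leaf copies, such as LAGI01_42642 against LAGI01_58821.

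Chalcone isomerase, which follows, also leaned to roots. Sums over its 5 sequences were 322.2, 307.6 and 259.4 RPKM in deficient proteoid roots and 314.4, 443.3 and 330.2 in sufficient roots, against 42.7, 86.7 and 33.8 in deficient leaves and 51.4, 102.0 and 103.9 in sufficient leaves. All root libraries exceeded all leaf libraries, and 4 of the 5 sequences were higher in roots at both supplies, as were 7 of 9 from the wider chalcone isomerase family, which had 1 lower. LAGI01_35967, the most abundant copy in both root groups, was at 105 ± 8.94 RPKM in deficient proteoid roots and 127 ± 31.0 in sufficient roots, against 17.4 ± 9.18 in deficient leaves and 28.4 ± 11.8 in sufficient leaves (SD, n = 3 each). The differences between tissues were 2.67 under deficient and 2.21 under sufficient P (log2, SE 0.459; limma adjusted p = 0.00018 and 0.000858). Its relative LAGI01_48571 ran the other way, at 1.3 to 3.1 RPKM over the 6 root libraries and 9.2 to 32.2 over the 6 leaf libraries (log2 difference -2.81 under deficient and -3.30 under sufficient P; limma adjusted p = 7.76e-05 and 1.2e-05).

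The chalcone subclass also holds 10 sequences of the aldo/keto reductase family. In other legumes an enzyme of that family, chalcone reductase, acts beside chalcone synthase to give deoxychalcones; the annotation does not say that these sequences have that activity. Under deficient P 4 of the 10 were called higher and 2 lower in proteoid roots, and under sufficient P 0 higher and 4 lower in roots. At both supplies 0 were higher and 2 lower. One of these 2 was LAGI01_44698, at 0.1 to 0.3 RPKM over the 6 root libraries, against 9.2, 8.0 and 2.5 RPKM in deficient leaves and 6.9, 6.7 and 6.7 in sufficient leaves (log2 difference -3.31 and -3.46 at deficient and sufficient P). LAGI01_48230, the most abundant in every group but sufficient leaves and chosen after its values were seen, overlapped between tissues, at 9.6 to 28.3 RPKM over root libraries and 4.1 to 20.6 over leaf libraries.

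Flavanone 3-hydroxylase, the step to dihydroflavonols, had opposite tissue preference to chalcone synthase and isomerase. Its 7 sequences summed to 4.6, 23.8 and 8.4 RPKM in deficient proteoid roots and 14.0, 26.1 and 23.9 in sufficient roots, against 584.3, 564.9 and 191.9 in deficient leaves and 849.3, 351.8 and 338.6 in sufficient leaves. The lowest leaf library was well above the highest root library. Of the 7, 5 were lower in roots at both supplies and 2 higher. LAGI01_58821 was at 0, 0.3 and 0 RPKM in deficient proteoid roots and 0.3, 0.1 and 0.2 in sufficient roots, against 177.0, 154.9 and 50.8 in deficient leaves and 243.4, 127.4 and 160.1 in sufficient leaves (log2 difference -7.58 and -7.94 at deficient and sufficient P; limma adjusted p = 3.06e-09 and 1.71e-09). LAGI01_42642 had 2.5, 12.3 and 4.7 RPKM in deficient proteoid roots and 7.7, 13.5 and 12.2 in sufficient roots, and was listed at 0 in all 6 leaf libraries (limma adjusted p = 4.44e-06 and 2.55e-07 at deficient and sufficient P). Leaves alone carried LAGI01_58821 past the filter and roots alone LAGI01_42642, which these p do not allow for.

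Flavonoid 3'-hydroxylase, which adds a hydroxyl group to the second ring, was present in both tissues. Its 13 sequences summed to 209.2, 361.8 and 233.9 RPKM in deficient proteoid roots and 316.1, 361.1 and 341.0 in sufficient roots, against 139.2, 159.7 and 52.0 in deficient leaves and 168.2, 136.9 and 128.4 in sufficient leaves. Sums were higher in every root library, though single copies differed: under deficient P 6 of 13 were higher and 0 lower in proteoid roots, and under sufficient P 9 were higher and 3 lower in roots. LAGI01_30448, the most abundant in every group but sufficient leaves, was at 53.7, 103.5 and 64.1 RPKM in deficient proteoid roots against 57.5, 51.9 and 15.6 in deficient leaves, which overlap, and at 98.5, 116.5 and 105.0 in sufficient roots against 55.8, 16.8 and 14.6 in sufficient leaves, which do not. Its tissue difference was not called under deficient P (log2 0.97, limma adjusted p = 0.183) and was called under sufficient P (2.13, limma adjusted p = 0.00566); the difference between these differences was not called. The most abundant in sufficient leaves was LAGI01_54289, chosen after its values were seen, at 27.4, 67.1 and 62.9 RPKM there against 16.9, 7.8 and 4.7 in sufficient roots. It was 1 of the 3 called lower in roots under sufficient P (log2 difference -2.44, limma adjusted p = 0.00608). LAGI01_28850 was nearly all in roots, at 19.9, 53.1 and 26.7 RPKM in deficient proteoid roots and 38.0, 40.1 and 39.0 in sufficient roots, with 0.3 to 2.7 over the 6 leaf libraries.

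Flavonol synthase closed the branch with a split between copies. The 7 sequences summed to 41.3, 274.3 and 258.6 RPKM in deficient proteoid roots and 158.7, 270.7 and 277.2 in sufficient roots, against 363.4, 515.9 and 133.5 in deficient leaves and 399.0, 254.2 and 192.1 in sufficient leaves. These sums overlapped between tissues, with 2 of 7 sequences higher and 2 lower in roots at both supplies. LAGI01_57561, the leading sequence of the flavonol subclass in leaves (43% of the subclass sum in deficient and 41.8% in sufficient leaves), was at 0.2, 0.2 and 0.1 RPKM in deficient proteoid roots and 0.1, 0 and 0 in sufficient roots, against 257.8, 294.7 and 73.7 in deficient leaves and 281.5, 157.5 and 129.2 in sufficient leaves. It was virtually a leaf sequence (log2 difference -8.07 and -8.40 at deficient and sufficient P, limma adjusted p = 2.44e-09 and 1.45e-09). Leaves alone carried it past the filter, which these p do not allow for.

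The leading sequence of that subclass in roots, LAGI01_45420, was shared between tissues. It was at 21.7, 165.5 and 179.2 RPKM in deficient proteoid roots and 91.6, 183.3 and 175.0 in sufficient roots, against 55.8, 116.1 and 34.6 in deficient leaves and 62.9, 42.0 and 27.5 in sufficient leaves. Replicate 1 of the deficient proteoid roots was below all 6 leaf libraries, and the tissue difference under deficient P was 0.51 (log2, limma adjusted p = 0.585). LAGI01_71300 was a root copy, at 10.5, 72.6 and 51.4 RPKM in deficient proteoid roots and 43.8, 49.7 and 66.0 in sufficient roots. In leaves it was listed at 0 in 5 libraries and at 1 RPKM in the sixth (limma adjusted p = 3.35e-07 and 2.4e-07 at deficient and sufficient P). Mainly roots carried it past the filter, which these p do not allow for.

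**Figure D3:**
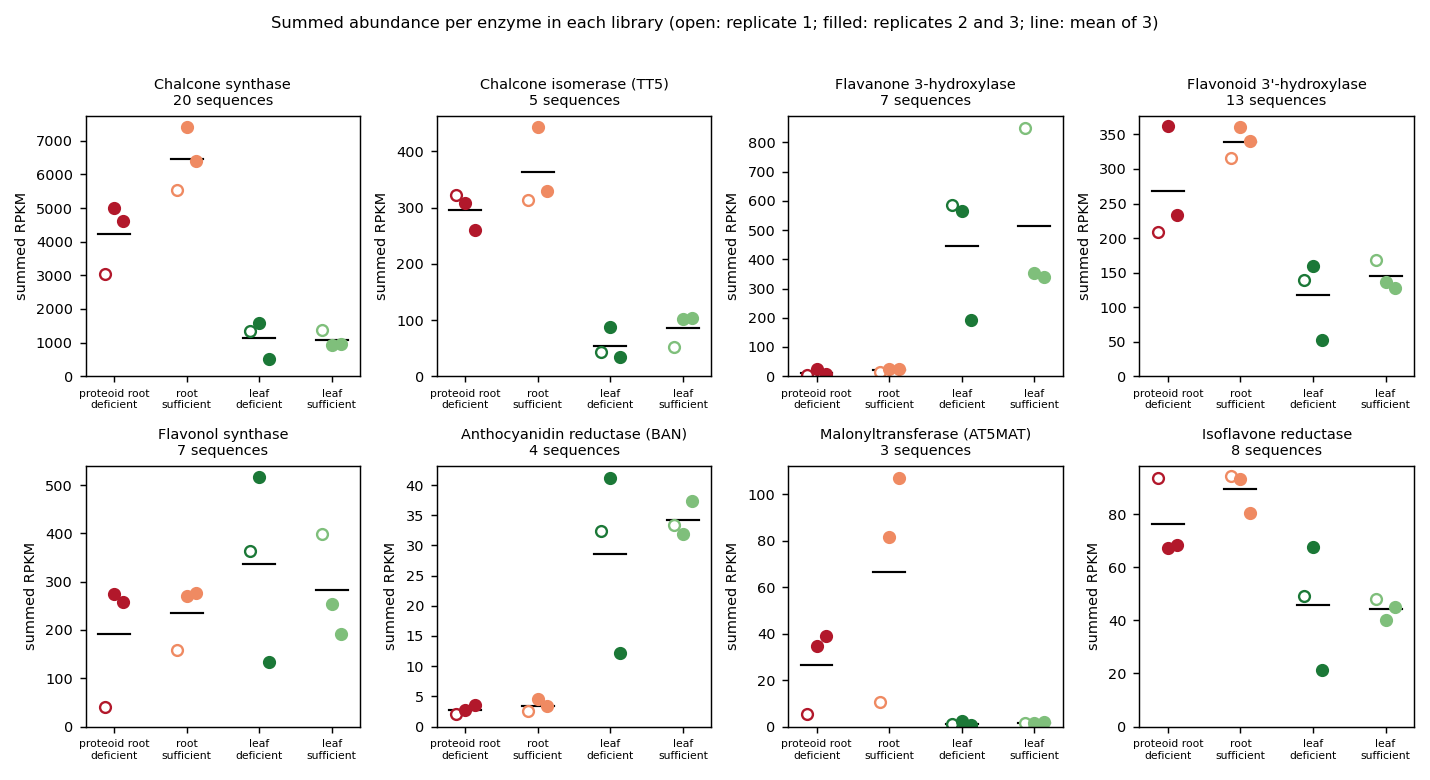
Summed RPKM per enzyme and library for 8 enzymes or families; open points are replicate 1, filled points replicates 2 and 3, and lines the mean of 3. Chalcone synthase and isomerase are higher in all root libraries, and flavanone 3-hydroxylase is higher in all leaf libraries. The open root points of the malonyltransferase AT5MAT (5.5 RPKM in deficient proteoid and 10.6 in sufficient roots) lie well below the filled ones.

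On the separate branch to anthocyanins and tannins lies anthocyanidin reductase (BANYULS), which makes tannin units. Its 4 sequences were lower in roots at both supplies, 4 of 4, with sums of 2.0, 2.7 and 3.6 RPKM in deficient proteoid roots and 2.5, 4.5 and 3.4 in sufficient roots, against 32.4, 41.2 and 12.2 in deficient leaves and 33.3, 31.9 and 37.4 in sufficient leaves. The most abundant, LAGI01_50424, had log2 differences of -2.59 and -2.82 at deficient and sufficient P (limma adjusted p = 4.46e-05 and 1.5e-05). Of sequences described only as dihydroflavonol reductase family and filed under flavonols, 3 were tested, with a highest value of 15.7 RPKM. LAGI01_45382 was listed at 0 in all 6 root libraries, against 12.5, 14.6 and 5.9 RPKM in deficient leaves and 13.1, 9.9 and 15.7 in sufficient leaves. LAGI01_94623 showed the opposite, at 1.4, 0.2 and 0 RPKM in deficient proteoid roots and 2.0, 1.0 and 0.4 in sufficient roots, and was listed at 0 in leaves. BEN1 is a reductase of that family that lowers brassinosteroid levels in Arabidopsis. Of its 7 sequences 2 were lower in roots at both supplies, LAGI01_44459 by the most, with 0.1 to 0.5 RPKM over root libraries and 23.0 to 57.7 over leaf libraries.

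Leucoanthocyanidin dioxygenase, which makes the anthocyanidin, was represented by 2 sequences that did not pass the filter. LAGI01_76176 was listed at 0 in all deficient proteoid root libraries and at 0.1, 0 and 0 RPKM in sufficient roots, against 0.4, 2.2 and 0.7 in deficient leaves and 0.3, 0.2 and 0.2 in sufficient leaves. LAGI01_87984 reached 2.5 RPKM at most, in deficient leaves of replicate 2. The filter's edge lay among low sequences. The 4 members just inside it, at 1 RPKM in exactly 3 libraries, had highest values of 1.9 to 12.9 RPKM, and the 4 just outside, at 1 RPKM in 2 libraries, had 1.4 to 1.7.

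The anthocyanin subclass had 30 of 46 members higher and 0 lower in roots at both supplies. Its oxygenases were grouped by a family name, which does not say that they act on anthocyanins. The short name anthocyanin oxygenases refers to their subclass only. The 20 iron- and oxoglutarate-dependent oxygenases of the anthocyanin subclass summed to 60.8, 286.7 and 338.5 RPKM in deficient proteoid roots and 127.5, 361.6 and 382.0 in sufficient roots, against 14.3, 14.3 and 6.2 in deficient leaves and 28.4, 39.2 and 62.8 in sufficient leaves. All 20 were higher in roots under deficient P and 15 under sufficient P. LAGI01_41394 was at 8.7, 21.7 and 24.2 RPKM in deficient proteoid roots and 13.9, 39.9 and 40 in sufficient roots, and at 0.2 or less in each leaf library (log2 difference 4.92 and 5.68 at deficient and sufficient P, limma adjusted p = 2.1e-07 and 3.57e-08). Roots alone carried it past the filter, which these p do not allow for.

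Acyltransferases showed the same tissue bias. Of 22 transferase family sequences 11 were higher in roots at both supplies and 0 lower, and so were 3 of 3 sequences matched to AT5MAT, the anthocyanin malonyltransferase of Arabidopsis. The transferase LAGI01_26940 was at 31.3, 41.1 and 45.1 RPKM in deficient proteoid roots and 38.5, 135.6 and 136.5 in sufficient roots, against 4.4, 6.1 and 1.3 in deficient leaves and 2.2, 2.9 and 1.7 in sufficient leaves. Each root library was above each leaf library (log2 difference 3.34 and 5.05 at deficient and sufficient P; limma adjusted p = 0.000103 and 1.06e-06). The malonyltransferase LAGI01_48035 was at 1.5, 10.8 and 11.1 RPKM in deficient proteoid roots and 3.1, 24.1 and 30.7 in sufficient roots, and at 0 to 0.3 over leaf libraries.

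Among 19 sequences matched to UGT72B glucosyltransferases, which in Arabidopsis attach glucose to small phenolics, 12 were higher in roots at both supplies and 0 lower. LAGI01_30707 was at 35.3, 139.3 and 147.2 RPKM in deficient proteoid roots and 35.9, 114.4 and 182.0 in sufficient roots, against 7.3, 1.8 and 0.9 in deficient leaves and 4.9, 2.0 and 7.5 in sufficient leaves (log2 difference 4.95 and 4.26 at deficient and sufficient P; limma adjusted p = 3.94e-05 and 0.000146). The reverse held for the 1 member matched to UF3GT, a flavonoid 3-O-glucosyltransferase, LAGI01_35622. It was at 0 to 0.4 RPKM over root libraries, against 1.4, 2.9 and 0.8 RPKM in deficient leaves and 1.7, 2.8 and 1.6 in sufficient leaves (log2 difference -1.76 and -1.94 at deficient and sufficient P, limma adjusted p = 0.00182 and 0.000735). Leaves alone carried LAGI01_35622 past the filter, which these p do not allow for. UGT78D glucosyltransferases, flavonol 3-O-glycosyltransferases in Arabidopsis that stand outside the class, had 2 of 2 sequences lower in roots at both supplies, with sums of 0.1 to 0.4 RPKM over root libraries and 35.8 to 165.3 over leaf libraries.

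Among oxygenases filed under flavonols, SRG1 was mostly in roots: its 8 sequences summed to 35.9, 21.1 and 19.4 RPKM in deficient proteoid roots and 34.1, 24.1 and 19.6 in sufficient roots, against 1.4 to 6.8 over leaf libraries, and 5 of the 8 were higher in roots at both supplies. DMR6, an oxygenase filed under dihydroflavonols, had 3 of 12 sequences higher and 0 lower in roots at both supplies, with sums of 24.5, 78.9 and 84.6 RPKM in deficient proteoid roots and 21.7, 55.6 and 75.1 in sufficient roots, against 59.1, 61.1 and 17.6 in deficient leaves and 56.0, 26.7 and 65.5 in sufficient leaves. The sequence matched to UGT73C6, a flavonol 7-O-glucosyltransferase in Arabidopsis, was higher in roots at both supplies, at 21.5 ± 1.81 RPKM in deficient proteoid roots and 27.0 ± 2.87 in sufficient roots, against 3.77 ± 3.09 in deficient leaves and 5.07 ± 1.15 in sufficient leaves (SD, n = 3 each).

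The isoflavonoid branch is represented by 8 isoflavone reductase sequences. Isoflavone reductase acts late in the legume route to pterocarpan defence compounds, though proteins of this family with other substrates share the name. Summed, they were at 93.6, 67.1 and 68.5 RPKM in deficient proteoid roots and 94.5, 93.3 and 80.5 in sufficient roots, against 49.0, 67.5 and 21.3 in deficient leaves and 47.9, 40.1 and 44.9 in sufficient leaves. The highest deficient leaf library lay just above the lowest deficient proteoid root library, and 2 sequences were higher and 1 lower in roots at both supplies. LAGI01_38241 was at 35.1, 22.8 and 22.1 RPKM in deficient proteoid roots and 32.8, 27.9 and 24.5 in sufficient roots, against 15.3, 12.6 and 5.0 in deficient leaves and 12.7, 8.9 and 11.5 in sufficient leaves. The log2 differences were 1.35 and 1.33 (SE 0.435; limma adjusted p = 0.0196 and 0.0208). The call under deficient P was lost with only the compared groups fitted (limma adjusted p = 0.0831) and without replicate 1 of the deficient proteoid roots (1.14, limma adjusted p = 0.0693).

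Some other legume-branch lists outside the class were also read. CYP93, the cytochrome P450 family that includes the isoflavone synthase of legumes, had 15 tested sequences, 4 higher and 1 lower in proteoid roots than in leaves under deficient P and 4 higher and 7 lower in roots under sufficient P. Summed over 16 sequences, CYP93 was at 504.7, 1062.9 and 829.8 RPKM in deficient proteoid roots and 916.7, 1553.8 and 1323.8 in sufficient roots. In leaves it was at 151.6, 371.4 and 116.3 under deficient and 208.0, 366.0 and 285.0 under sufficient P. In this sum all root libraries exceeded all leaf libraries, although more single sequences were lower than higher in roots under sufficient P. Vestitone reductase-related sequences were lower in roots in 3 of 3 at both supplies. Chalcone isomerase sequences filed outside the class were higher in roots in 4 and 5 of 7 at deficient and sufficient P, with 0 lower.

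Regulators divided as well. Sequences matched to MYB12 or MYB111, activators of flavonol synthesis in Arabidopsis, were higher in roots in 6 and lower in 8 of 15 under deficient P, and higher in 6 and lower in 9 under sufficient P. The bHLH partners TT8, GL3 and EGL3 had 15 of 18 higher and 3 lower in roots under deficient P, and 11 and 3 under sufficient P. TTG1, the WD-repeat partner, was higher in roots in 3 of 3 at both supplies. MYB4, a repressor of phenylpropanoid genes, had 12 of 19 higher and 3 lower in roots under deficient P, and 10 and 1 under sufficient P. The single HY5 sequence, a light-signalling activator, was called at neither supply.

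Tissue exclusivity can be counted without a fit. At 1 RPKM or more in all 6 root libraries and below 1 in all 6 leaf libraries were 34 of 203 members, where 5.78% of all tested sequences had that pattern. They included 6 of 8 SRG1 sequences, oxygenases named for a senescence-related gene of Arabidopsis, 6 anthocyanin-subclass oxygenases, 4 chalcone synthases, 3 sequences of the oxygenase DMR6 and 2 flavanone 3-hydroxylases. The leaf-only pattern held for 15 members, where 4.19% of all tested sequences had it. Among these were 5 flavanone 3-hydroxylases, 2 flavonol synthases, 2 aldo/keto reductases, 2 BEN1 sequences and 1 chalcone synthase. These 34 and 15 members passed the filter through 1 tissue alone, so their tissue tests are conditioned on the tissue where they are high. The same holds for some members outside these counts, such as LAGI01_94623 and LAGI01_56989, which each reached 1 RPKM in 3 libraries, all of them roots.

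The second question is how the class responded to P deficiency in roots. No member was called: 0 of 203 in limma, where 0.279% of all tested sequences were called (0.245% higher and 0.0345% lower in deficient proteoid roots), with 12 members at an unadjusted p below 0.05 (3756 of all tested sequences). The log2 change was above 0 for 75 members and below 0 for 128, with a median of -0.17 against 0.00 over all tested sequences. Changes below are therefore values and not calls.

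The values of chalcone synthase were lower in deficient proteoid roots for all 20 sequences, with a median log2 change of -0.73 and a range of -1.32 to -0.15. In each of the 3 same-numbered pairs 19 of the 20 were lower in deficient proteoid roots, and 7 of the 20 did not overlap between groups. Over the class, 73 members were lower in deficient proteoid roots in all 3 pairs, where 16.3% of all tested sequences were, and 31 were higher, where 18.9% were. Of 203 members 25 were below sufficient roots without overlap, where 4.39% of all tested sequences were, and 11 were above, where 6.79% were. The smallest p among chalcones belonged to the chalcone synthase LAGI01_67544, at 11.6, 58.9 and 41.8 RPKM in deficient proteoid roots against 50.3, 116.1 and 80 in sufficient roots, groups that overlap (log2 change -1.32, SE 0.532; limma adjusted p = 0.898).

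Most other core steps had medians below 0, at -0.37 for flavonoid 3'-hydroxylase (4 of 13 above 0), -0.30 for chalcone isomerase (1 of 5), -0.25 for flavanone 3-hydroxylase (0 of 7), -0.21 for anthocyanidin reductase (0 of 4) and -0.19 for flavonol synthase (2 of 7). So did the anthocyanin oxygenases (median log2 change -0.43, 1 of 20 above 0), AT5MAT (-1.13, 0 of 3 above 0), transferases (-0.40, 7 of 22 above 0) and isoflavone reductases (-0.29, 0 of 8 above 0). Feeding steps had negative medians as well, at -0.41 for phenylalanine ammonia-lyase and -0.44 for cinnamate 4-hydroxylase, with -0.01 for 4-coumarate:CoA ligase. The transferase LAGI01_54375 was at 3.1, 7.0 and 5.0 RPKM in deficient proteoid roots against 14.5, 11.7 and 10.6 in sufficient roots, without overlap (log2 change -1.26, SE 0.363; limma adjusted p = 0.335).

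The member with the smallest p in the root comparison was the isoflavone reductase LAGI01_56989, at 0.8, 0.5 and 0.4 RPKM in deficient proteoid roots against 1.8, 3.1 and 3.5 in sufficient roots. The groups did not overlap, and leaves were at 0 to 0.2. It reached 1 RPKM in the 3 sufficient root libraries alone and so entered the test only through the group where it is high, which its p does not allow for. Its log2 change was -1.61 (SE 0.351; limma adjusted p = 0.0759), and it passed the threshold with a pseudocount of 1 (limma adjusted p = 0.0316), in the barcoded libraries alone (0.0257) and without replicate 3 of the deficient leaves (0.0447).

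Values ran the other way in the aldo/keto reductases (median log2 change 0.47, 8 of 10 above 0) and in DMR6, a salicylic acid hydroxylase in Arabidopsis (0.26, 12 of 12 above 0). In all 3 pairs 7 of 10 aldo/keto reductases and 6 of 12 DMR6 sequences were higher in deficient proteoid roots. The aldo/keto reductase sums were 39.7, 65.1 and 90.9 RPKM in deficient proteoid roots against 26.7, 47.0 and 61.7 in sufficient roots, higher in each pair while the groups overlap. No sequence of either family was called.

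**Figure D4:**
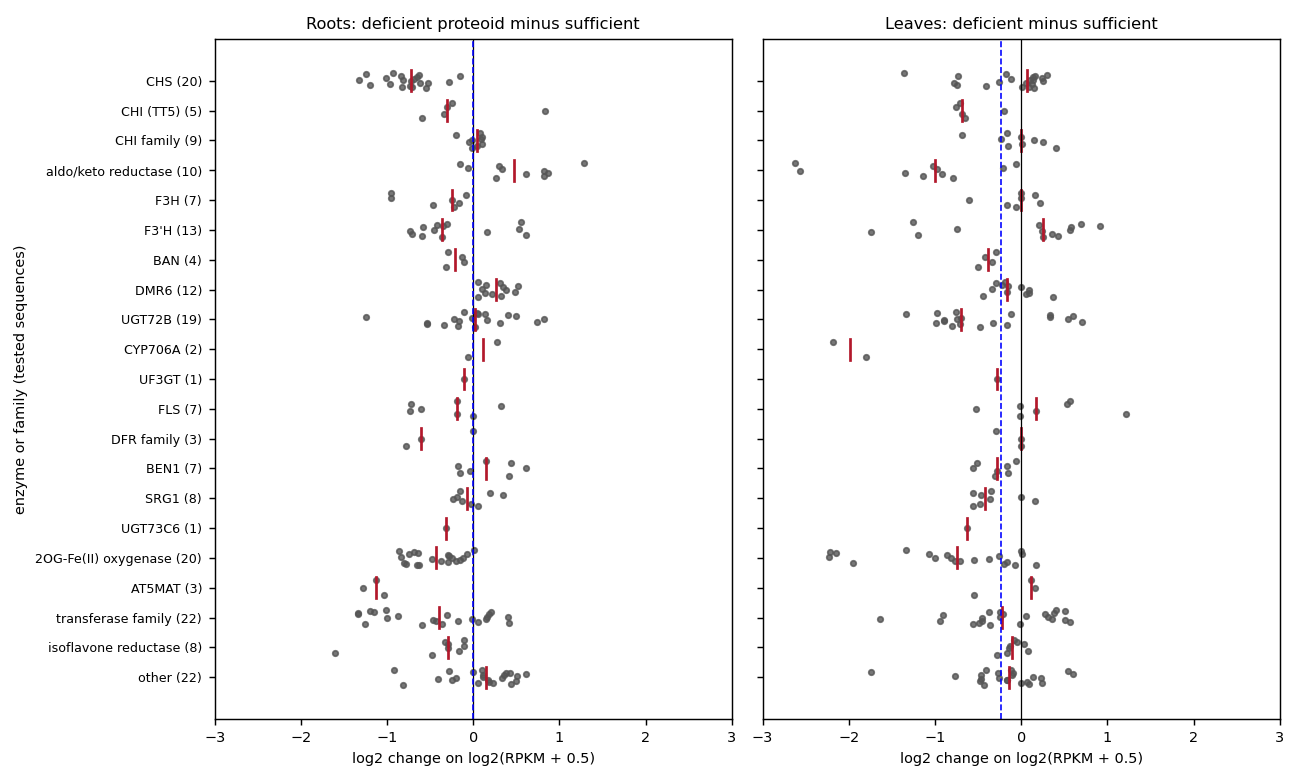
Log2 change of every tested member with P deficiency in roots (left) and leaves (right), grouped by enzyme or family; points are sequences, red lines family medians, and the blue dashed line the median of all tested sequences (0.00 in roots, -0.24 in leaves). In roots all chalcone synthase points lie left of 0 and all DMR6 points right of it, and in leaves all aldo/keto reductase points lie left of 0; no point was called.

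The feeding steps had no call in roots either. Of 150 tested sequences on the lists outside the class 0 were called in the root and 0 in the leaf response by limma, with 7 and 14 at an unadjusted p below 0.05. The phenylalanine ammonia-lyase LAGI01_68273 was at 0.4, 1.2 and 0.5 RPKM in deficient proteoid roots against 3.0, 2.7 and 3.5 in sufficient roots, without overlap (log2 change -1.62, SE 0.364; limma adjusted p = 0.0903). With the replicate number as a block within each tissue its limma adjusted p was 0.0414. In roots it reached 1 RPKM in every sufficient library but not in every deficient one. Its entry to the test may thus have rested on the group where it is high, which neither p allows for. LAGI01_59366, of the same enzyme, was at 2.9, 8.3 and 4.9 RPKM in deficient proteoid roots against 14.8, 26.5 and 21.6 in sufficient roots (log2 change -1.94; limma adjusted p = 0.345, or 0.0102 with the block within each tissue).

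Replicate 1 set part of the class apart in roots of both supplies. All 20 anthocyanin-subclass oxygenases were lower in replicate 1 than in replicates 2 and 3 of both deficient proteoid roots and sufficient roots, by a median log2 of -2.56 and -1.58. All 12 DMR6 sequences and 3 of 3 AT5MAT sequences had the same order in both root groups, and chalcone synthase had it in 18 of 20 for deficient proteoid roots and 14 of 20 for sufficient roots. Of all tested sequences replicate 1 was the lowest in 29.6% in deficient proteoid roots and 35.5% in sufficient roots, and of the 203 members in 107 and 128. In deficient leaves replicate 1 was the lowest in 17 members, where it was so in 5.71% of all tested sequences, and in sufficient leaves in 66, where it was so in 37%. Sequencing format differed too, since replicate 1 had a lane per library and no barcodes, while barcoded libraries of replicates 2 and 3 shared a lane in pairs.

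Markers moved with replicate 1. The 7 sequences described as early nodulin, among them the ENOD18 family, summed to 152.0, 1815.6 and 2003.6 RPKM in deficient proteoid roots and 626.7, 1445.4 and 1913.9 in sufficient roots, and to 8.4 to 35.6 over leaf libraries. The morning genes of the circadian clock minus the evening ones, as mean log2, were at 0.68, -0.84 and -1.11 in deficient proteoid roots and -0.38, -2.21 and -2.37 in sufficient roots. Lists chosen as root markers ran the opposite way. The nitrate transporters NRT2 (2 sequences) summed to 54.0, 17.2 and 9.9 RPKM in deficient proteoid roots and 74.1, 17.1 and 11.4 in sufficient roots, and to 0.9 to 8.5 over leaf libraries. The root patterning genes SCR and SHR (20 sequences) summed to 110.0, 30.9 and 28.7 and to 81.2, 38.0 and 27.4 in the same root groups. Over leaf libraries SCR and SHR summed to 17.2 to 44.2 RPKM, which overlaps roots. Of their 14 tested sequences 4 were called higher in roots under deficient and 5 under sufficient P, with 0 lower. That list therefore does not mark roots alone here. The part of sequencing format, tissue composition, nodule-type transcripts and time of day in the values of these families was not tested. In the barcoded libraries alone the median root change was -0.63 for chalcone synthase and -0.12 for the anthocyanin oxygenases, and with the clock difference as a covariate these were -0.70 and -0.08, while the aldo/keto reductases were at 1.04 with that covariate.

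The third question is the leaf response to P deficiency. Again 0 of 203 members were called by limma, where 0.0276% of all tested sequences were (0.0103% higher and 0.0172% lower in deficient leaves), with 17 members at an unadjusted p below 0.05 (6754 of all tested sequences). The log2 change was above 0 for 64 members and below 0 for 135. The median was -0.19, against -0.24 over all tested sequences, a shift that moved with the scaling: with median-of-ratios scaling the medians were 0.00 for members and -0.04 for all tested sequences, and without replicate 3 of the deficient leaves 0.09 and 0.06. Leaf changes are therefore to be read beside the median of all tested sequences.

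Chalcone synthase had a median leaf change of 0.07, with 12 of 20 sequences above 0 and 8 below. The families with the lowest medians were CYP706A at -1.99, aldo/keto reductases at -1.0, anthocyanin oxygenases at -0.74, UGT72B at -0.70 and chalcone isomerase at -0.68. Without replicate 3 of the deficient leaves these medians were -1.76, -0.70, -0.48, -0.15 and -0.39, in the same order. In all 3 pairs 35 members were lower in deficient leaves, where 15.3% of all tested sequences were, and 7 were higher, where 3.9% were. Without overlap 17 members were below sufficient leaves, where 4.45% of all tested sequences were, and 0 above, where 0.722% were.

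The member with the smallest p was LAGI01_43996, matched to the cytochrome P450 CYP706A7. It was at 0.9, 2.2 and 0.7 RPKM in deficient leaves against 2.8, 9.8 and 11.9 in sufficient leaves, without overlap, and at 0.2 to 0.6 in roots. It passed the filter through the 3 sufficient leaf libraries and 1 deficient one, so its test too is conditioned on the group where it is high. The log2 change was -2.18 (SE 0.449, limma adjusted p = 0.108). With the clock difference as a covariate 0 of 87081 sequences were called in leaves. LAGI01_43996 was uncalled under 16 alternatives and called under 6. The calls came with the replicate number as a block (limma adjusted p = 0.0465), with that block within each tissue (0.0372) and with sequencing format in the model (0.024). It was also called in the barcoded libraries (0.000109), with only the compared groups fitted (0.0122) and without replicate 1 of the sufficient leaves (-2.77, limma adjusted p = 0.0018). Its relative CYP706A4, LAGI01_70500, was at 0.9, 4.2 and 1.1 RPKM in deficient leaves against 5.4, 9.9 and 6.8 in sufficient leaves, also without overlap (log2 change -1.80; limma adjusted p = 0.266, or 0.0337 with the block within each tissue).

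Outside the class, the CYP93 sequence LAGI01_73152 was at 1.1, 3.5 and 1.0 RPKM in deficient leaves against 4.0, 11.7 and 9.7 in sufficient leaves (log2 change -1.96; limma adjusted p = 0.267, or 0.0351 with the block within each tissue).

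In aldo/keto reductases the leaf values turned on 2 libraries. LAGI01_38153 was at 1.3, 2.6 and 1.1 RPKM in deficient leaves against 1.3, 33.5 and 33.9 in sufficient leaves, and LAGI01_55268 at 0.7, 0.7 and 0.1 against 0.6, 12.9 and 11.7. Replicates 2 and 3 of the sufficient leaves were high and replicate 1 was at the level of deficient leaves, so the groups overlap. LAGI01_55268 reached 1 RPKM in 3 libraries in all, 2 of them these sufficient leaves, and so entered the test mainly through them. The log2 changes were -2.63 and -2.57 (limma adjusted p = 0.321 and 0.255). Without replicate 1 of the sufficient leaves they were -4.04 and -3.75, and both were called (limma adjusted p = 8.42e-05 and 0.000105). Of all 87081 tested sequences, 1309 were then called lower and 178 higher.

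Among the oxygenases LAGI01_36490, chosen after its values were seen, had the same shape, with 1.3, 0.9 and 0.9 RPKM in deficient leaves against 1.9, 7.8 and 14.8 in sufficient leaves. The clock difference split the same libraries. It was at 3.05, 1.97 and 1.45 in deficient leaves and at 1.38, -2.37 and -2.28 in sufficient leaves. With it as a covariate the median leaf change was -0.29 for aldo/keto reductases, -0.04 for anthocyanin oxygenases and -0.22 for chalcone isomerase. In 2 barcoded libraries a group, 17 members were called, 15 lower and 2 higher in deficient leaves. Of all 87081 tested sequences, 4583 were then called lower and 632 higher. The part of harvest time in these values was not tested.

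**Figure D5:**
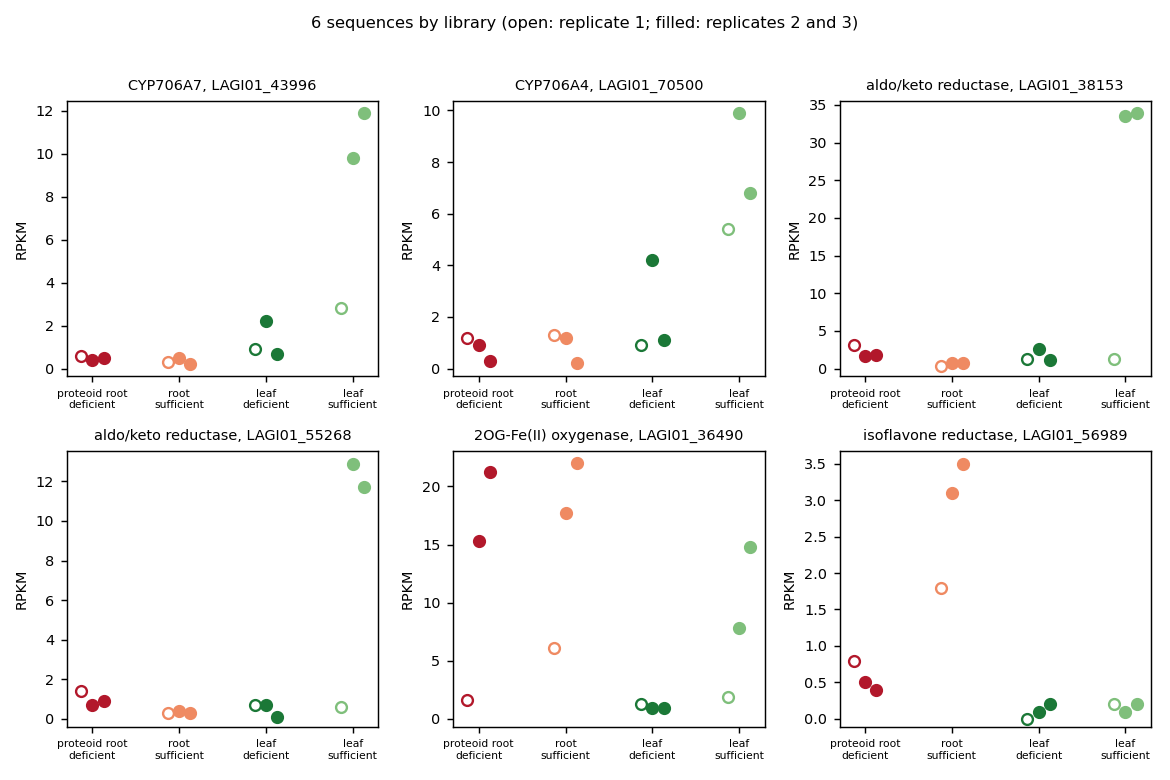
RPKM of 6 sequences in each library; open points are replicate 1, filled points replicates 2 and 3. For CYP706A7 and both aldo/keto reductases the filled points of sufficient leaves lie above all deficient leaf points, while the open point of sufficient leaves is at 2.8, 1.3 and 0.6 RPKM; the isoflavone reductase separates deficient proteoid roots (0.4 to 0.8 RPKM) from sufficient roots (1.8 to 3.5 RPKM).

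A last comparison asked whether roots and leaves differed in their response. In limma 0 of 203 members were called for the difference of responses, where 0.0597% of all tested sequences were (0.0586% with the higher change in roots and 0.00115% with the lower), with 17 members at an unadjusted p below 0.05 (5160 of all tested sequences). Chalcone synthase had medians of -0.73 in roots and 0.07 in leaves, and aldo/keto reductases 0.47 and -1.0, but no single sequence of either family differed between tissues past the threshold.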

How the data were processed

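Per the labels, 12 poly-A libraries were read for 76 cycles by an Illumina Genome Analyzer. The submitters' processing notes name Bowtie, with no role or version. The deposited matrix has values with 1 decimal, taken here to be RPKM made by the authors, since neither labels nor headers name the unit. How reads were counted is not given in the sources used here, and depth is unknown.

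Members followed the deposited MapMan class; they and the lists were chosen with earlier results of these data known. Lists outside the class followed symbols and descriptions in the deposited annotation, because most sequences there carry no Arabidopsis locus code. The 87081 sequences that reached 1 RPKM in 3 libraries or more were transformed to log2(RPKM + 0.5), so fold changes of low sequences are understated. Limma 3.58.1 (R 4.3.3), its trend option on, estimated 4 group means from 12 libraries, with 5 contrasts and Benjamini-Hochberg adjustment over all sequences tested. Sums within the class are over tested members. Sums of the outside lists and markers are over every listed sequence, tested or not. The procedure was tested on simulated data. Python 3.11.15, pandas 2.3.3, numpy 2.4.6 and matplotlib 3.10.9 made tables and figures.

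Sequences named are, per contrast and subclass, up to 5 called members per direction with the largest change, 1 per description, and the member with the smallest p; the most abundant member per subclass and tissue and per core enzyme; and 2 members with the smallest p per outside list. The other sequences named were chosen after their values were seen. Leaving out each library and 12 other alternatives were tried.

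The correlation of deviations from group means between same-numbered libraries was 0.399 to 0.751 in roots and 0.126 to 0.237 in leaves. Across tissues it was -0.223 to 0.34. In roots, replicate 2 of the deficient proteoid group had 0.472 with sufficient replicate 3, and replicate 3 had 0.441 with sufficient replicate 2. Same-numbered root libraries had 0.399 for replicate 2 and 0.644 for replicate 3. These values therefore do not settle whether root replicates 2 and 3 are paired by number, and the labels name no pairing. Counts over same-numbered pairs are descriptions only, and the main fit has no pairing. A block on the replicate number is an alternative and is given where it changed a call.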

Additional observations from a re-analysis of the deposited data

How the results depend on the processing

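The tissue calls held their direction and number over nearly all alternatives: 125 to 148 members under deficient P (138 as reported) and 125 to 157 under sufficient P (142 as reported). The exception is values summed per description, which leaves fewer units, with 28 (21 higher and 7 lower in roots) and 31 (20 higher and 11 lower). All 34776 units tested then had 8805 higher and 4532 lower under deficient P, and 7227 higher and 6673 lower under sufficient P.

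Root response calls were 1 with a pseudocount of 1 and 1 in the barcoded libraries, and 0 to 1 when 1 library was left out (1 without replicate 3 of the deficient leaves). Leaf response calls were 1 with the replicate block, 2 with the block within each tissue, 1 with sequencing format in the model, 17 in the barcoded libraries and 8 with only the compared groups, and 0 to 4 when 1 library was left out (4 without replicate 1 of the sufficient leaves). Over all tested sequences, 138 were lower and 20 higher with the replicate block, 199 and 54 with it within each tissue. With sequencing format 295 were lower and 37 higher, and in the barcoded libraries 4583 and 632. With only the compared groups 1303 were lower and 179 higher of 85155. Without replicate 1 of the sufficient leaves 1309 were lower and 178 higher. For the difference of responses there were 5 in the barcoded libraries and 0 to 3 when 1 library was left out (3 without that same library). All tested sequences had 1312 higher and 247 lower in the barcoded libraries, and 263 and 5 without that same library. On the lists outside the class, root calls were 1 with a pseudocount of 1 and 2 with the block within each tissue. Leaf calls there were 1 with that block, 7 in the barcoded libraries, 2 with only the compared groups and 0 to 2 when 1 library was left out. The cause of these shifts was not tested. The block changed no call of a named sequence other than those given with it.

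Among single sequences, LAGI01_13453 reversed in leaves (-0.41 as reported, -0.99 to 0.17 when 1 library was left out, above 0 without replicate 3 of the deficient or replicate 1 of the sufficient leaves), as did the cinnamate 4-hydroxylase LAGI01_39843 with the clock covariate (0.83 as reported, -0.69). Unknown depth and values with 1 decimal limit what can be said of sequences near 1 RPKM.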
